A study of Saccharomyces cerevisiae with 4 samples.

Results

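Transcript levels of 34 proteasome genes of Saccharomyces cerevisiae were compared between the Sen1ΔN strain and wild-type cells. The genes encode 14 subunits of the 20S core, 10 of the 19S base, 8 of the 19S lid, the assembly factor Ump1 and the transcription factor Rpn4. They were taken by name from the platform annotation, each was measured by 1 probe set, and they are 34 of 5449 yeast genes on the array. Sen1 is a nuclear helicase that helps to end transcription of short non-coding RNA genes, and Sen1ΔN lacks part of its N terminus. The Sen1ΔN strain is MATα and carries ade2-101, his3-200 and lys2-801, the deletion trp1-_delta_1, ura3-52 and leu2-_delta_1::sen1-2. The wild type, BY4741, is MATa and carries the deletions his3_delta_1 and leu2_delta_0 together with met15_delta_0 and ura3_delta_0. The strains therefore differ in mating type and marker genes as well as in SEN1, and these cannot be told apart from each other. Both grew at 24 °C with shaking in synthetic complete medium with 2% glucose, without treatment, to an exponential OD600 of 1.5. Each strain had 2 arrays, from independent experiments per the design text, hybridized with labelled cRNA from 6 ug of total RNA.

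The 26S proteasome is the protease that degrades proteins marked with ubiquitin. Its 20S core is a barrel of outer α rings and inner β rings, in which 3 kinds of β subunit carry the active sites. The 19S particle caps the barrel: the base holds a ring of 6 ATPases that unfold the substrate together with scaffold and ubiquitin-receptor subunits, and the lid holds the protease that removes ubiquitin. In yeast, Rpn4 activates most proteasome genes through a shared promoter element. Rpn4 is itself a very short-lived substrate of the proteasome, which makes a feedback loop on the amount of proteasome.

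The labels were checked first. All 7 MATa-specific genes were lower and all 6 MATα-specific genes higher on the Sen1ΔN arrays. SEN1 had log2 signals of 12.01 and 12.17 in Sen1ΔN, against 10.66 and 10.57 in the wild type. Whether its probes lie inside the deleted stretch is not known here, so SEN1 does not check the allele. Of 6 measured marker genes, LEU2 went against a simple reading of the genotypes, and HIS3 could not be judged from them. HIS3 lay at 6.36 and 5.91 in Sen1ΔN, which carries his3-200, and at 11.93 and 11.94 in the wild type, which carries his3_delta_1. How much of HIS3 each allele leaves is not stated in the labels. LEU2 lay at 12.17 and 12.21 in Sen1ΔN, whose label names a leu2 deletion, and at 6.01 and 6.07 in the wild type. The arrays also differed by strain in control transcripts probed at both ends: over 6 yeast controls the 3′ minus 5′ log2 signal ran from 2.20 to 5.91 in Sen1ΔN and from 0.15 to 2.29 in the wild type. All proteasome genes lay far above background, at 10.74 to 13.26 log2 against a background level of 5.23 to 5.36 set by fission yeast probe sets.

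About as many proteasome genes were lower in Sen1ΔN as did not pass the test, and RPN4 was among the few that were higher. Differences are Sen1ΔN minus wild type on the log2 scale, and a gene was called at a limma adjusted p under 0.05. Of the 34 genes, 16 were called lower (47.1%, against 34.4% of all yeast genes) and 2 higher (5.88%, against 35.3%). The median difference was -0.23, against 0.01 over all genes. Negative differences numbered 28 of 34, or 82.4%, while 49.1% of all genes were negative. The changes were small: 5 of 34 genes differed by more than 0.5 log2, or 14.7%, compared with 46.5% of all genes. Both Sen1ΔN arrays lay below both wild-type arrays for 24 proteasome genes (70.6%, against 42.9% of all genes) and above them for 2, RPN2 and RPN4, against 44.3% of all genes. In RNA from whole cultures, less transcript per cell and fewer cells holding it cannot be told apart.

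The count of lower genes changed with the normalization and with 1 array. Quantile normalization of the yeast genes left 10 of the 34 genes lower, a smaller share than the 32.9% of all genes. It left 2 higher, against 37.7% of all genes. The members' median was then -0.08, with 20 of 34 differences negative. Of the 34 genes, 25 had a mean signal over 12 and up to 13 log2, a class in which the median of all 582 genes was -0.12 and 43.1% were called lower. Of these 25 proteasome genes, 11 were called lower, or 44.0%, which is close to that share. Their median was -0.17, and 14 of the 25 lay below the median of the class. Another 8 had a mean signal over 11 and up to 12 log2, and 5 of them (62.5%) were called lower, against 36.7% of 1092 genes, with medians of -0.35 and -0.0049. Without wild type replicate 1 the count was 6, against 27.1% of all genes. An unmoderated linear model called 7 lower and 1 higher, against 22.7% and 22.2% of all genes. The share called lower was then also below that of all genes, as it was without wild type replicate 1. PUP1, RPN10, RPT5 and RPT6 were called lower as reported here and under all 12 alternatives. How many of all genes met the same condition was not counted. Whether proteasome genes kept a lower call more or less often than other genes is therefore not known.

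**Figure D1:**
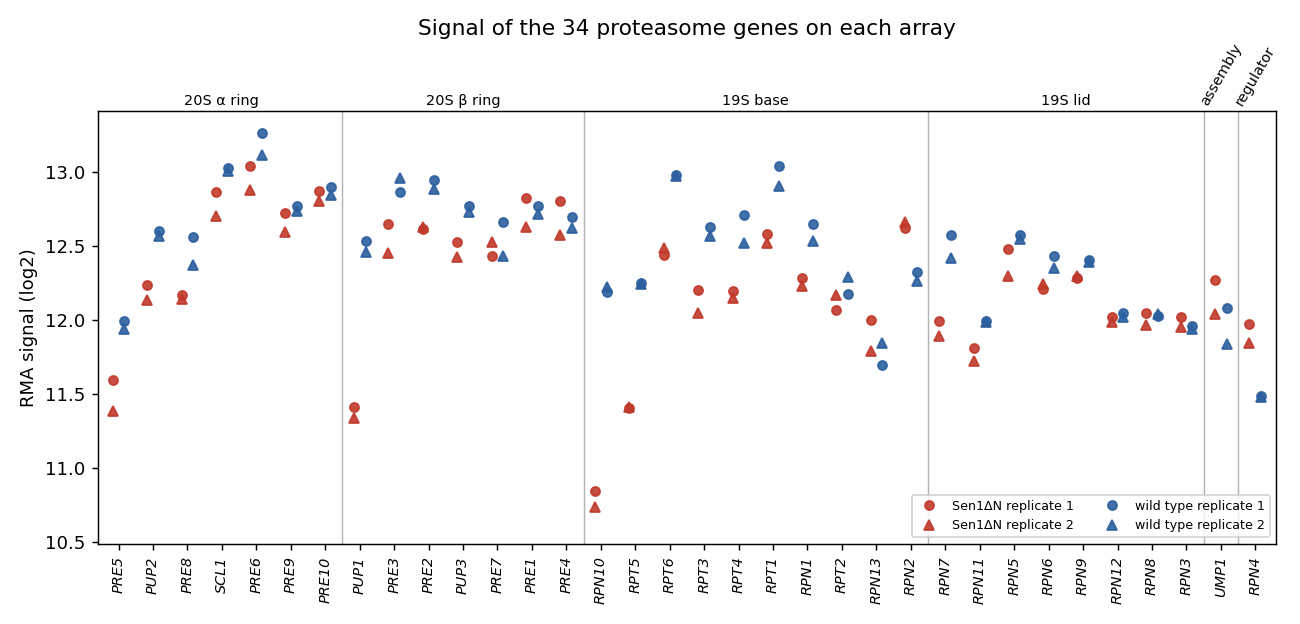
Log2 RMA signal (vertical axis) of the 34 proteasome genes on each of the 4 arrays, grouped by subcomplex and ordered by difference within it. Red marks are Sen1ΔN and blue marks wild type, with a circle for replicate 1 and a triangle for replicate 2. RPN10, PUP1 and RPT5 show the widest gaps, with both Sen1ΔN arrays below both wild-type arrays, and RPN4 and RPN2 lie above them.

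Among the 20S α subunits, which form the gate of the core and the docking surface for the cap, 3 of 7 fell (42.9%, against 34.4% of all genes) and none rose, with a median of -0.23. PRE5 (YMR314W) had log2 signals of 11.60 and 11.38 in Sen1ΔN, against 11.99 and 11.94 in the wild type. The groups did not overlap, and PRE5 fell by 0.47 (SE 0.10, adjusted p = 0.00932). PUP2 (YGR253C) had 12.23 and 12.13 in Sen1ΔN, against 12.60 and 12.57 in the wild type, a difference of -0.40 (SE 0.07, adjusted p = 0.00627). Both Sen1ΔN arrays were again the lower ones. PRE8 fell by 0.31 (SE 0.09) and was not called with the trend on gene length removed (-0.25, adjusted p = 0.0528) or after quantile normalization. The other 4 α subunits did not pass the test. SCL1 and PRE6 differed by -0.23 each, with adjusted p = 0.0545 and 0.0823. PRE9, the α subunit that yeast can do without, had 12.72 and 12.59 in Sen1ΔN and 12.77 and 12.73 in the wild type, a difference of -0.09. PRE10 had 12.87 and 12.81 in Sen1ΔN and 12.90 and 12.85 in the wild type, and its arrays overlapped.

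In the β ring, 4 of 7 subunits fell (57.1%, against 34.4% of all genes) and none rose, and all 3 catalytic subunits were among the 4. After quantile normalization PUP1 alone of the 4 was called, with adjusted p = 0.0881 for PRE3, 0.169 for PRE2 and 0.238 for PUP3. PUP1 (YOR157C) encodes the subunit with the trypsin-like activity. Its log2 signal was 11.41 and 11.33 in Sen1ΔN, against 12.53 and 12.46 in the wild type. The signal was 54.1% below that of the wild type, a difference of -1.12 (SE 0.07, adjusted p = 0.000293), and 492 of the 5449 genes had a lower difference. PRE3, with the caspase-like activity, had 12.65 and 12.45 in Sen1ΔN, against 12.86 and 12.96 in the wild type. The difference of PRE3 was -0.36 (SE 0.10, adjusted p = 0.023), and that of PRE2, with the chymotrypsin-like activity, was -0.30 (SE 0.07, adjusted p = 0.0127). PRE2 was not called with the length trend removed (-0.16, adjusted p = 0.0865). The 95% confidence interval of PUP1 (-1.31 to -0.94) did not overlap that of PRE3 (-0.61 to -0.11) or PRE2 (-0.47 to -0.13). PUP3 fell by 0.27 (SE 0.07). PRE7 differed by -0.07 (adjusted p = 0.586), and its arrays overlapped between strains, as did those of PRE1 and PRE4. PRE1 had 12.82 and 12.62 in Sen1ΔN and 12.77 and 12.71 in the wild type. PRE4 had 12.81 and 12.57 in Sen1ΔN and 12.70 and 12.62 in the wild type.

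The base had the lowest median difference of the 4 subcomplexes. Of its 10 subunits 7 fell (70.0%, against 34.4% of all genes) and 1 rose (10.0%, against 35.3%), with a median of -0.43. Among the 6 ATPases, 5 fell (83.3%, against 34.4% of all genes), with a median of -0.46. The sixth, RPT2, differed by -0.11 (adjusted p = 0.254). RPT5 (YOR117W) had log2 signals of 11.41 and 11.41 in Sen1ΔN, against 12.25 and 12.24 in the wild type, a level 43.9% lower (difference -0.83, SE 0.06, adjusted p = 0.000434). The replicates of RPT5 nearly coincided in both strains. RPT6, RPT3, RPT4 and RPT1 followed with differences of -0.51, -0.47, -0.44 and -0.42 (SE 0.06 to 0.09). With the length trend removed 3 of the 6 ATPases were called lower, against 31.7% of all genes, at a median of -0.25. RPT1 (adjusted p = 0.0508) and RPT4 (adjusted p = 0.066) no longer passed. The unmoderated model called 2 lower, RPT5 and RPT6, against 22.7% of all genes.

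The ubiquitin receptors of the base went apart. RPN10 (YHR200W), whose protein binds ubiquitin chains and sits between base and lid, had the lowest difference of all 34 genes. Its log2 signal was 10.84 and 10.74 in Sen1ΔN, against 12.19 and 12.23 in the wild type. The signal was 62.5% below that of the wild type (difference -1.42, SE 0.07, adjusted p = 0.000191), and 325 of all genes had a lower difference. Whether the sequence under the probe sets of RPN10 and PUP1 is the same in both strains is not known here. RPN13, another receptor, had 12.00 and 11.79 in Sen1ΔN, against 11.70 and 11.84 in the wild type, so that its arrays overlapped (difference 0.12, SE 0.10, adjusted p = 0.332). The scaffolds also went apart. RPN2 (YIL075C), which holds Rpn13, had 12.62 and 12.66 in Sen1ΔN, against 12.32 and 12.26 in the wild type, and rose by 0.35 (SE 0.07, adjusted p = 0.00807). It was not called without wild type replicate 2 (0.32, adjusted p = 0.0724). RPN1, a docking site for shuttle proteins that carry ubiquitylated substrates, fell by 0.34 (SE 0.08, adjusted p = 0.0134). RPN1 was not called after quantile normalization or in the unmoderated model (adjusted p = 0.0664).

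In the lid, which cuts ubiquitin off the substrate, 2 of 8 subunits fell, or 25%, against 34.4% of all genes. None rose, and the median was -0.14. RPN7 (YPR108W) had log2 signals of 11.99 and 11.89 in Sen1ΔN, against 12.57 and 12.42 in the wild type, a fall of 0.56 (SE 0.09, adjusted p = 0.00406). RPN11 (YFR004W), the deubiquitinating enzyme of the lid, had 11.81 and 11.72 in Sen1ΔN, against 11.99 and 11.98 in the wild type. It fell by 0.22 (SE 0.07, adjusted p = 0.0361) and lost the call with the length trend removed (-0.06, adjusted p = 0.464). The remaining scaffold subunits RPN5, RPN6, RPN9 and RPN12 differed by -0.17, -0.17, -0.11 and -0.03, none past the threshold. RPN8, the partner of Rpn11, had 12.05 and 11.96 in Sen1ΔN, against 12.03 and 12.04 in the wild type. RPN3 had 12.02 and 11.95 in Sen1ΔN, against 11.96 and 11.94 in the wild type, and both overlapped. Over all 16 proteasome genes that were not called, the 95% confidence intervals reached from -0.47 to 0.53, and each interval is that gene's own, so the bounds are no common limit of detection. No test compared the subcomplexes with each other.

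**Figure D2:**
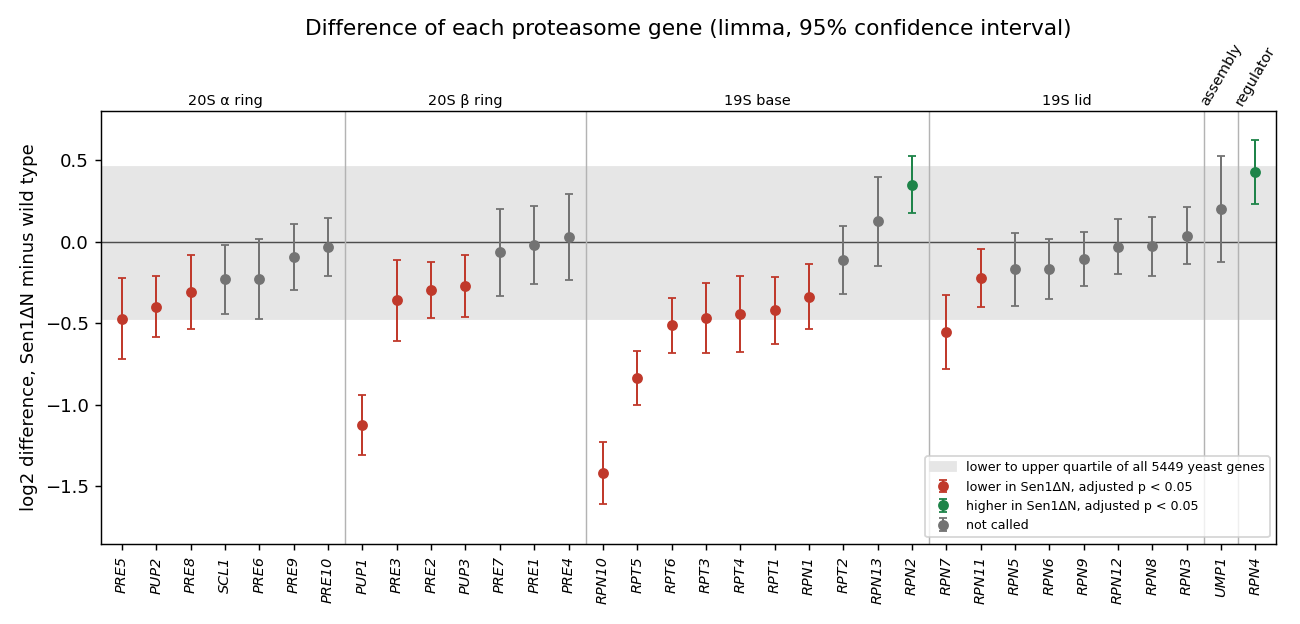
Log2 difference, Sen1ΔN minus wild type (vertical axis), of each proteasome gene with its 95% confidence interval from limma, grouped by subcomplex. Red genes were called lower, green ones higher, grey ones not, and the grey band spans the lower to the upper quartile of all yeast genes, from -0.47 to 0.45. RPN10 at -1.42, PUP1 at -1.12 and RPT5 at -0.83 lie well below the band, while RPN2 and RPN4 are the called genes above 0.

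RPN4 (YDL020C), the activator of the subunit genes, rose. Of the 32 subunit genes 16 fell, against 34.4% of all genes, and 1 rose, against 35.3%. The unmoderated model called 7 of the 32 lower, against 22.7% of all genes. Whether the rise of RPN4 is linked to the subunit genes was not tested. The log2 signal of RPN4 was 11.97 and 11.84 in Sen1ΔN, against 11.49 and 11.48 in the wild type. Both Sen1ΔN arrays lay above both wild-type arrays, a 1.34-fold higher level (difference 0.42, SE 0.08, adjusted p = 0.00623). Without 1 array at a time, the difference ran from 0.36 to 0.49 and stayed called. In the unmoderated model it just missed the threshold (adjusted p = 0.0508), and the difference lay between the lower and upper quartile of all genes (-0.47 and 0.45). UMP1 (YBR173C), the chaperone that is enclosed in the maturing core and becomes its first substrate, had 12.27 and 12.04 in Sen1ΔN, against 12.08 and 11.84 in the wild type. Its arrays overlapped, replicate 1 being the higher one in both strains (difference 0.20, SE 0.13, adjusted p = 0.21).

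Of 7 genes known to act on Rpn4 or on its gene, 2 rose, 2 fell and 3 were not called, with a median of -0.04. The called share was 28.6% in each direction, against 35.3% of all genes higher and 34.4% lower. Rpn4 is marked for degradation by the ligase Ubr2 with its partner Mub1 and the conjugating enzyme Rad6. MUB1 had 11.27 and 11.22 in Sen1ΔN, against 10.62 and 10.54 in the wild type, and rose by 0.67 (SE 0.07, adjusted p = 0.00113). RAD6 fell by 0.30 (SE 0.08, adjusted p = 0.0205), and UBR2 differed by -0.20 (adjusted p = 0.0815). Yap1, Pdr1, Pdr3 and Hsf1 are transcription factors that can activate RPN4. YAP1 rose by 0.31 (SE 0.08, adjusted p = 0.0183), PDR1 and PDR3 differed by 0.22 and -0.04 without passing, and HSF1 fell by 0.68 (SE 0.18, adjusted p = 0.0223). The Sen1ΔN arrays of HSF1 lay at 9.55 and 10.02, far apart, against 10.58 and 10.36 in the wild type. MUB1 alone of the 4 called regulators was also called in the unmoderated model (adjusted p = 0.0249).

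Gene length went with the strain difference across the array, though not evenly, and most proteasome genes are short to medium in length. The median difference of all genes was 0.43 up to 600 bp, 0.01 over 600 and up to 900 bp, -0.19 up to 1200 bp and -0.14 up to 1500 bp. It was -0.03 over 1500 and up to 2000 bp and 0.003 in longer genes. The 20S core genes are 597 to 867 bp long, and the 6 ATPase genes 1218 to 1404 bp. RPN2 and RPN1 are longer, at 2838 and 2982 bp. Of the 34 genes, 27 lay below the median of their own length class. By class of mean signal fewer did so: 5 of 8 over 11 and up to 12 log2, 14 of 25 over 12 and up to 13, and 1 of 1 above. With a smooth trend on length removed, 11 of the 34 genes were called lower, a share near the 31.7% of all genes. Those called higher numbered 2, against 37.3% of all genes, and the median was -0.16 against 0.05. The 11 were all among the 16. Lower calls remained for 5 of 10 base genes, 5 of 14 core genes and 1 of 8 lid genes, against 31.7% of all genes. The median of the lid turned to 0.06. PUP1, RPN10 and RPT5 differed by -1.04, -1.32 and -0.63 after removal, and RPN4 by 0.58. All 6 usable control transcripts had a larger gap between their ends in Sen1ΔN, by a median of 2.38 log2, and its part in these differences was not tested.

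**Figure D3:**
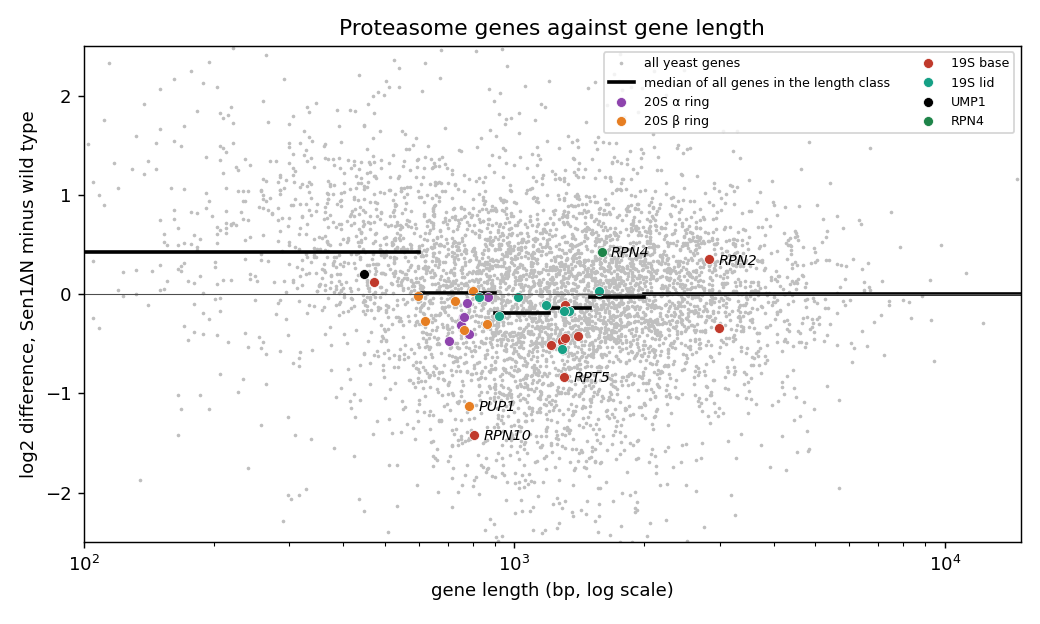
Log2 difference, Sen1ΔN minus wild type (vertical axis), against gene length in bp (log scale) for all yeast genes in grey and the proteasome genes in colour by subcomplex; 147 genes beyond 2.5 log2 or shorter than 100 bp are not drawn. Black bars are medians of all genes in 6 length classes, from 0.43 in the shortest genes to -0.19 over 900 and up to 1200 bp. Most proteasome genes lie below the bar of their class, and RPN10, PUP1 and RPT5 lie farthest below.

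Other genes of the ubiquitin-proteasome system went both ways. Of 74 such genes in 9 lists, all above background, 23 rose and 23 fell, with a median of 0.03. This was 31.1% in each direction, against 35.3% of all genes higher and 34.4% lower. Of 4 dedicated chaperones of the core, 2 rose (50%, against 35.3% of all genes), 1 fell (25%, against 34.4%) and 1 was not called. Poc4 and Irc25 form a pair that helps to assemble the α ring, and both genes rose. POC4 had 12.41 and 12.44 in Sen1ΔN, against 10.77 and 10.67 in the wild type, a 3.26-fold higher level (difference 1.70, SE 0.07, adjusted p = 0.000127). IRC25 had 10.63 and 10.66 in Sen1ΔN, against 10.09 and 10.08 in the wild type, a difference of 0.56 (SE 0.06, adjusted p = 0.0014). Pba1 and Add66 form the other pair. PBA1 fell by 0.38 (SE 0.08, adjusted p = 0.0119), and ADD66 differed by -0.17 (adjusted p = 0.114). POC4 and IRC25 are short genes, of 447 and 540 bp, and differed by 1.40 and 0.38 with the length trend removed, still called, while PBA1 lost its call (-0.22, adjusted p = 0.0651). Of 5 chaperones of the base, 1 rose (20%, against 35.3% of all genes) and none fell. NAS2 rose by 0.27 (SE 0.08, adjusted p = 0.0337), and the others were not called. Removing the length trend ended the call of NAS2 (adjusted p = 0.0516) and called HSM3 at 0.40 and RPN14 at 0.22 as higher and TMA17 at -0.46 as lower.

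Among 8 factors bound to the proteasome, 3 rose (37.5%, against 35.3% of all genes) and 4 fell (50%, against 34.4%). SEM1, the gene of the smallest lid subunit and not among the 34, had 12.78 and 12.83 in Sen1ΔN, against 11.89 and 11.78 in the wild type. It rose by 0.97 (SE 0.07, adjusted p = 0.000446), and by 0.38 with the length trend removed (adjusted p = 0.00844), being 270 bp long. FUB1, whose protein resembles a mammalian inhibitor of the core, fell by 1.03 (SE 0.07), and SPG5, needed for proteasome assembly in stationary phase, fell by 0.74 (SE 0.07).

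The ubiquitin genes split by kind. UBI4, the stress-induced gene of head-to-tail ubiquitin repeats, had 12.32 and 12.20 in Sen1ΔN, against 13.19 and 13.27 in the wild type, and fell by 0.97 (SE 0.08, adjusted p = 0.000502). RPL40B, RPL40A and RPS31, in which ubiquitin is fused to a ribosomal protein, rose by 0.56, 0.21 and 0.23 (SE 0.06 to 0.07). RPS31 turned to -0.06 and lost its call with the length trend removed. These 4 genes share the ubiquitin coding sequence and RPL40A and RPL40B encode the same protein, and whether their probe sets tell them apart is not known here.

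Of 11 enzymes that activate or conjugate ubiquitin, 5 fell (45.5%, against 34.4% of all genes) and 1 rose (9.09%, against 35.3%). UBC6 and UBC7 encode conjugating enzymes of degradation at the endoplasmic reticulum. UBC6 had 10.70 and 10.35 in Sen1ΔN, against 11.50 and 11.50 in the wild type, a difference of -0.97 (SE 0.13). UBC5 and UBC7 fell by 0.74 and 0.59. Of the 11 ligase genes 4 rose, or 36.4%, near the share of all genes, and 1 fell, or 9.09%. HRD1, the ligase for misfolded proteins of the endoplasmic reticulum, had 10.13 and 10.18 in Sen1ΔN, against 11.19 and 11.20 in the wild type, and fell by 1.04 (SE 0.07, adjusted p = 0.000285). SAN1, the ligase for misfolded nuclear proteins, rose by 0.89 (SE 0.10), and HEL2, which acts on stalled ribosomes, by 0.52 (SE 0.08). Of 18 deubiquitinases 7 rose, or 38.9%, also near that share, and 3 fell, or 16.7%. UBP11 rose by 1.39 (SE 0.15) and UBP16 by 0.94 (SE 0.06), and DOA4, which recovers ubiquitin at endosomes, fell by 0.92 (SE 0.11).

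Most genes of the factors that bring substrates to the proteasome fell. Cdc48 is the ATPase that extracts ubiquitylated proteins, and the shuttle proteins Rad23 and Dsk2 carry them to the proteasome. Of 8 genes of Cdc48, its cofactors and shuttle factors, 7 fell (87.5%, against 34.4% of all genes) and none rose, with a median of -0.63. UBX2, the membrane anchor of Cdc48, had log2 signals of 7.60 and 7.77 in Sen1ΔN, against 10.58 and 10.50 in the wild type. It fell by 2.86 (SE 0.09, adjusted p = 7.22e-05), and 51 of all genes had a lower difference. Whether the sequence under this probe set is the same in both strains is not known here. RAD23 had 11.17 and 11.10 in Sen1ΔN, against 12.20 and 12.12 in the wild type, and fell by 1.03 (SE 0.07, adjusted p = 0.000367). DSK2 fell by 0.94 (SE 0.10), while DDI1, the third shuttle gene, differed by -0.02 (adjusted p = 0.806). With the length trend removed, 6 of the 8 were still lower, against 31.7% of all genes, at a median of -0.55.

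**Figure D4:**
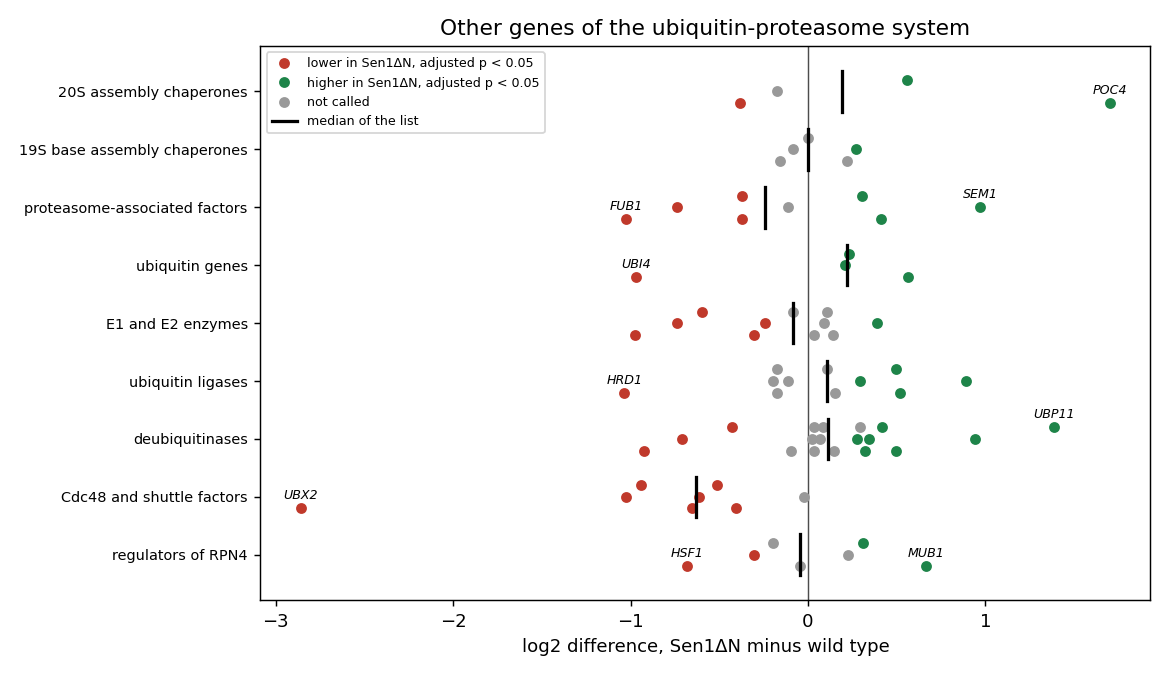
Log2 difference, Sen1ΔN minus wild type (horizontal axis), of the 74 other genes of the ubiquitin-proteasome system in 9 lists, with UBR2 and RAD6 in a pair of lists each. Red points were called lower, green ones higher, grey ones not, and black bars are list medians. The Cdc48 and shuttle genes sit at or below 0 with a median of -0.63, and POC4 at 1.70 and UBX2 at -2.86 are the extremes.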

How the data were processed

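RNA was measured on 4 Affymetrix yeast arrays, and the deposited log2 signals of all probe sets were used as the authors gave them. RMA is named per the submitters' processing notes, as is the program Affymetrix Expression Console; versions, and which arrays were normalized together, are not given in the sources used here. RMA gives arrays a common distribution, so a change in total mRNA would not show. Probe sets were named through the platform annotation and the R64 RefSeq table. Of 10928 probe sets, 5498 carried 1 yeast gene, and the mean was taken for the 47 genes with several, which left 5449 genes. The 95th percentile of 1746 S. pombe probe sets gave the background level. Sen1ΔN minus wild type was fitted with limma 3.58.1 in R 4.3.3 across all genes (two-sided, residual degrees of freedom of 2), with p-values adjusted by Benjamini-Hochberg; the fit was tested on simulated data. With 2 arrays per strain the smallest p of an exact permutation test is 0.333, so smaller values draw on a variance moderated over genes. The number of arrays limits the precision, and p-values measure only the spread between 2 cultures per strain.

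The members and lists were chosen with earlier results of these data known, and the signal and length classes after the values were seen. All 34 members are named. Array values are given for RPN4, UMP1 and the 2 highest and 2 lowest differences of each subcomplex, and the 3 largest called differences are named in each related list, with every regulator of RPN4. Other genes were named for context. The alternatives tried were quantile normalization, median centring, a replicate block, the fit without each array in turn, a filter on dim genes, trended robust moderation, an unmoderated linear model, the brightest probe set and removal of a loess trend on gene length (span 0.5, degree 1). Promoter elements were not analysed here.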

Additional observations from a re-analysis of the deposited data

How the results depend on the processing

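Over 12 alternatives, the 34 proteasome genes kept their call, or the lack of one, in 359 of 408 values, lost a call in 42 and gained one in 7 (812, 60 and 15 of 888 values for the 74 related genes). No called proteasome gene changed sign. Of those not called, 9 did with the length trend removed, 8 under quantile normalization and 1 to 3 without 1 array. Leaving out 1 array gave 6 to 19 genes lower, 1 to 2 higher and a median of -0.28 to -0.17; the lowest count lower was without wild type replicate 1, and the 1 higher gene without wild type replicate 2 was RPN4. Quantile normalization gave 10 lower and moved the median to -0.082. Removing the length trend moved it to -0.16. The unmoderated model called 7 lower and 1 higher, 2445 of all genes (3796 with moderation) and 14 related genes lower, and ended the call of RPN4 (0.42, adjusted p = 0.0508). The related genes numbered 13 to 23 higher and 15 to 24 lower without 1 array, against 23 each. RPS31 reversed to -0.0596 with the length trend removed. The replicate numbers do not pair the arrays (2 pairs only, no shared source in the labels, and deviations of same-numbered arrays correlated at -0.034 across genes). With the replicate block 14 proteasome genes were lower, 2 were higher and 3471 of all genes were called. A search of promoters for the binding element of Rpn4, and its alternatives, was not run for want of promoter sequence here. The 34 genes all lay above background, so dim signal does not limit them. The number of arrays limits the precision, and the strain difference in the control transcripts was not tested as a further limit.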

Other observations

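RPN10 and PUP1, with the lowest differences among the proteasome genes, were looked at with their neighbours in gene order after their values were seen. Beside RPN10 the flanking genes NBL1 and PPX1 differed by -2.29 (SE 0.31, adjusted p = 0.00254) and -0.91 (SE 0.10, adjusted p = 0.00128). AIM46, the next gene beyond NBL1, differed by -1.23 (SE 0.06, adjusted p = 0.0002), while AIM18 beyond it rose by 0.49 (SE 0.09). NBL1 had log2 signals of 3.67 and 4.35 in Sen1ΔN, at background, against 5.97 and 6.63 in the wild type, so its fitted difference has no measured level on the Sen1ΔN side. Beside PUP1, NFI1 fell by 0.23 (SE 0.06, adjusted p = 0.0273) and PET123 rose by 0.87 (SE 0.08, adjusted p = 0.000714). The next genes outward were SME1 beyond PET123, which rose by 1.05 (SE 0.06), and ISN1 beyond NFI1, which fell by 0.59 (SE 0.09, adjusted p = 0.00378). RPS4B, 3 genes from RPN10 on the side of PPX1, differed by -0.04 (adjusted p = 0.585). No proteasome gene lies beside a snoRNA gene in the reference table, and the 34 genes are spread over 13 chromosomes with no 2 of them adjacent.

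Among the proteasome genes, replicate 1 was the higher array for 26 of 34 genes in Sen1ΔN and for 29 of 34 in the wild type, with median gaps of 0.08 and 0.05 log2. Over all genes it was the higher one for 3009 and 2806 of 5449.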
